A study of Ettlia oleoabundans with 10 samples.

Results

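Of 10122 transcript families measured in the green alga Ettlia oleoabundans, 199 (1.97%) formed the set described here. Their levels in every culture labelled 75 to 600 mM NaCl were higher than in any nitrate-replete culture. These families were chosen by their measured values on the log2(value + 1) scale. In a member, the levels at 75, 150, 300 and 600 mM NaCl each lay at least 1 (that is, 2-fold) above the highest of 3 replete cultures, which held 1.5 mM nitrate, 3 mM nitrate or the control medium of 9 mM nitrate and 42 mM NaCl. A family that was also at least 2-fold above that highest replete level at both 0 and 0.38 mM nitrate was left out. The salt clause was met by 244 families (2.41% of all), and the nitrate clause removed 45 of them. Because the values themselves set the membership, the rise in salt is a description of the members and has no test. Averaged over the 4 NaCl libraries, all 199 members reached a value of 1, the minimum for the slope test below, and 6 stayed under 5.

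Ettlia oleoabundans is a unicellular green alga that accumulates oil when growth is limited. Green algae that meet salt outside the cell take up ions and lose water. Known answers of green algae include the synthesis of small compatible solutes such as glycerol or proline, the export or storage of sodium by membrane transporters, and the production of proteins that detoxify reactive oxygen or protect other proteins. The scaffold families carry numbers in place of gene names, and the deposited table does not pair them with names, so none of the members can be assigned to such a process here.

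Poly(A)-selected RNA of strain UTEX # 1185 was sequenced from 10 cultures, 1 library for each condition, after 6 days at 25 °C in vitamin-supplemented, modified Bold Basal Medium, started with 1000000 cells per ml and lit without pause at between 22 and 28 µmol photons m-2 s-1. The nitrate series held 0, 0.38, 0.75, 1.5 and 3 mM nitrate, the salt series 75, 150, 300 and 600 mM NaCl, and the control belonged to both. The NaCl level of the nitrate cultures and the nitrate level of the NaCl cultures are not stated in the labels. The values are expression levels that appear to be scaled for length and depth, and their sums ran from 362924 to 695913 per library. Families listed at 0 were most numerous at 0.38 mM nitrate (1263) and 150 mM NaCl (1247). In the other libraries they ran from 380 at 75 mM NaCl to 1021 at 1.5 mM nitrate. The part of this in the results below was not tested. Read depth is unknown, so the counting error of the values cannot be estimated. With 1 library per condition their replicate error cannot be estimated either. Over families detected in all 10 libraries, the median log2 ratio to the control was 0.42 for 150 mM NaCl, 0.25 for 300 mM, 0.23 for 75 mM, 0.20 for 0 mM nitrate and between -0.06 and 0.10 for the others. After scaling by median ratios, which removes these shifts, 137 families met the rule, and 136 of them were among the 199. In a culture harvested as a whole, more cells in one state and more RNA per cell cannot be told apart.

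The members were not highly expressed as a group in the replete cultures. Their median value in the 1.5 mM nitrate, 3 mM nitrate and control cultures was 15.0, 17.1 and 16.9, and over all 9309 tested families the control median was also 16.9. In 75, 150, 300 and 600 mM NaCl it was 54.1, 90.4, 81.3 and 107.8. Median differences from the highest replete level were 1.51, 2.18, 2.03 and 2.56 on the log2 scale, or 2.85-fold, 4.53-fold, 4.09-fold and 5.89-fold of value + 1. The number of members at least 4-fold above the replete cultures was 57, 126, 103 and 141 from the lowest to the highest salt level, and at least 16-fold it was 6, 15, 26 and 39. Over all families the 4-fold limit was passed by 1.46%, 2.64%, 2.68% and 10.5%, and the 16-fold limit by 0.168%, 0.247%, 0.504% and 1.68%. The clauses were not equally easy to meet, since the 2-fold limit was passed by 4.95%, 11.7%, 11.2% and 20.1% of all families in 75, 150, 300 and 600 mM NaCl.

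**Figure D1:**
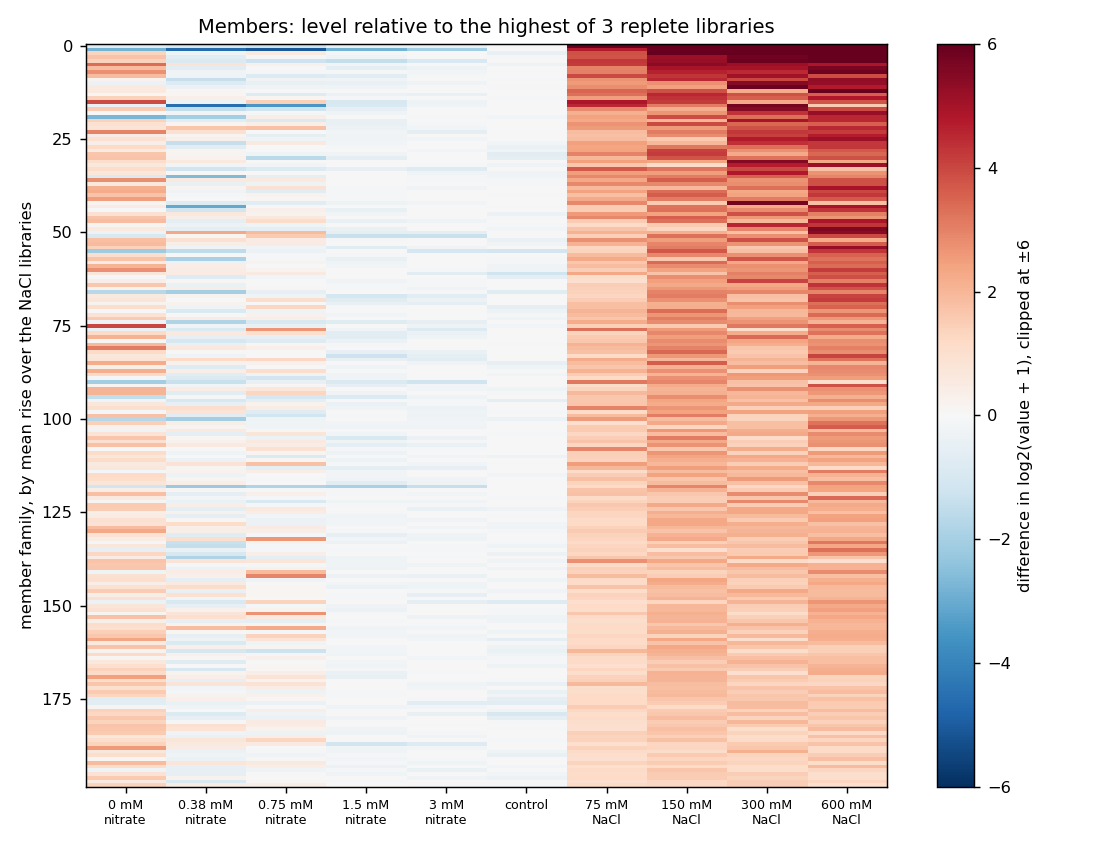
Each row is 1 of the 199 member families, ordered by mean rise over the NaCl libraries, and each column 1 library; colour gives the difference in log2(value + 1) from the highest replete library, clipped at 6 in both directions. The 4 NaCl columns are all above 1 by the rule, while the 0 mM nitrate column is mixed, with 92 members at or above 1.

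The members took up a larger part of the measured transcript pool in salt. Their summed values made up 1.10% of the library total at 1.5 mM nitrate, 1.13% at 3 mM and 1.35% in the control. With 75, 150, 300 and 600 mM NaCl the share was 6.23%, 13.5%, 13.0% and 19.1%. None of the 50 most abundant families of the control or of any nitrate library was a member. At 75, 150, 300 and 600 mM NaCl, members filled 5, 7, 8 and 13 of the first 50 places. The sum rested strongly on 5 members, 2_c0, 69_c0, 61_c0, 129_c0 and 38_c0, which held 57.0% of it at 600 mM. Without them the members' share was 1.16% in the control and 3.74%, 6.26%, 5.04% and 8.21% along the salt series.

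**Figure D2:**
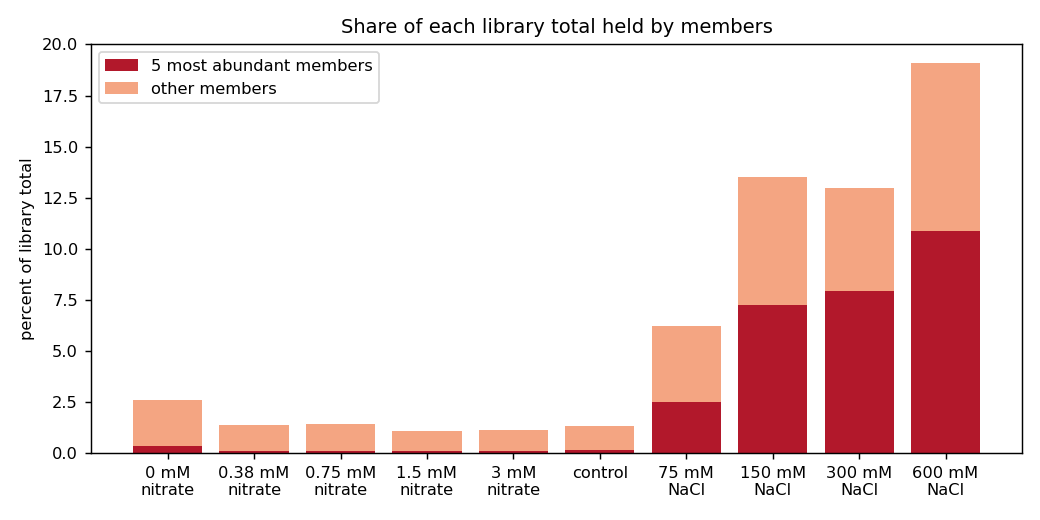
Bars give the percent of each library total held by the 199 members, with the 5 most abundant members in dark red and the others in light red. The stack reaches 6.23% at 75 mM NaCl and 19.1% at 600 mM, against 1.35% in the control and 2.60% at 0 mM nitrate.

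Family 129_c0 stood farthest from the replete cultures. In the replete cultures (1.5 mM nitrate, 3 mM nitrate, control) it had 24.9, 25.3 and 34.6, and in 75, 150, 300 and 600 mM NaCl it had 2428, 7494, 8342 and 7186. On the log2 scale most of the change was already present at 75 mM, where the value was 70.2 times that of the control, and at 600 mM it was 207.7 times the control. Nitrate shortage did not go with a similar level, as the values with 0, 0.38 and 0.75 mM nitrate were 22.2, 17.2 and 13.8.

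Family 69_c0 had the most uneven replete levels of all members, 23.4, 41.8 and 173.5 in the same order, a spread of 2.84 on the log2 scale. Along the salt series it had 4781, 10678, 16709 and 16069. It was low under nitrate shortage, with 23.8, 6.01 and 4.18 for 0, 0.38 and 0.75 mM. The lowest salt value was thus 27.6 times the control and the values at 0.38 and 0.75 mM nitrate lay below every replete culture. The replete cultures of most members were closer together, with a median spread of 0.27 log2 units, beside 0.33 over all families. The spread was under 0.5 in 155 members and at least 1 in 10.

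Family 61_c0 had 52.2, 75.8 and 142.3 in the replete cultures (1.5 mM nitrate, 3 mM nitrate, control). Along the salt series it had 2715, 5297, 8559 and 9220.0, higher at each concentration than at the one before. Unlike 129_c0 and 69_c0 it was also high without nitrate, at 378.8 for 0 mM against 78.1 for 0.38 mM and 59.2 for 0.75 mM. Family 2_c0, the most abundant member, was likewise highest at 0 mM nitrate outside the salt series, with 1679 there, 470.7 in the control and 297.0 at 0.38 mM. In salt 2_c0 was 8.01 times the control at 75 mM and 50.2 times at 600 mM.

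Family 1595_c0 was at 15.0, 17.1 and 13.8 in the replete cultures in the same order. Salt from 75 to 600 mM gave 329.2, 774.6, 635.3 and 527.2, and its value of 186.7 at 0 mM nitrate fell between the replete and the salt cultures. Families 4442_c0 and 9616_c0, singled out after their values were seen, were the only members listed at 0 in all 3 replete cultures. Family 4442_c0 had 4.51, 4.20, 44.2 and 3.89 from 75 to 600 mM NaCl. Family 9616_c0 had 10.1, 13.6, 3.61 and 70.0 in the same libraries. The 2 families thus reached their highest values at different salt levels.

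**Figure D3:**
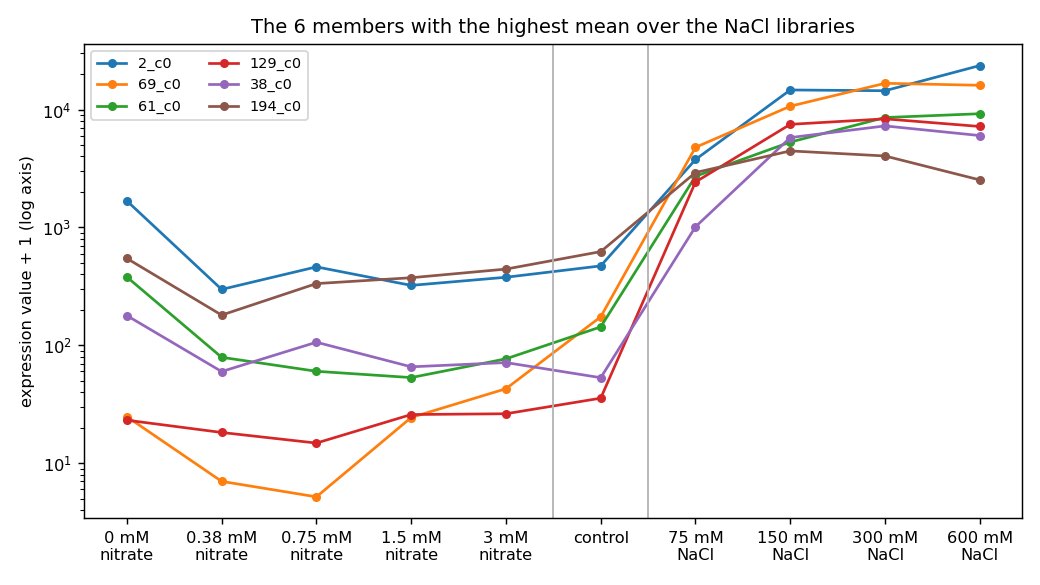
Lines join the expression value + 1 (log axis) of the 6 members with the highest mean over the NaCl libraries across the 10 libraries, each point being 1 library. Family 194_c0, the flattest, stays between 2529 and 4458 from 75 to 600 mM NaCl, while 2_c0 goes from 3769.8 to 23630.3.

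For the change from 75 to 600 mM, the slope of log2(value + 1) per doubling of NaCl was fitted with limma in the 4 NaCl libraries. All 9309 families were fitted and tested alike. The rule names no order among the 4 libraries, but it chose the members on these same 4 values. The clause at 75 mM was the hardest to meet, and the lowest salt value of 129 members (64.8%, against 21% of all families) was the one at 75 mM. The shares of members and of all families set side by side here therefore describe the members and support no contrast between them. Slopes and p-values of single members likewise come from values that also selected them, and are to be read as description. The slope was above 0 in 169 members (84.9%), against 42.9% of all families, with a median of 0.26 per doubling against -0.04. Without the 75 mM library the slope was above 0 in 131 members, against 38.8% of all families, and the medians were 0.11 and -0.11. With median-ratio scaling it was above 0 in 179 members and in 53.4% of all families.

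Only 2 members passed the slope test at an adjusted p under 0.05 (limma, Benjamini-Hochberg), both upward, which is 1.01% of members against 0.14% of all families called upward and 0.333% called downward. As a description only, 54 members (27.1%) had a positive slope at an unadjusted p under 0.05, beside 5.88% of all families, and 3 (1.51%) a negative one, beside 5.39%. Family 4502_c0 had 23.7, 50.4, 125.0 and 188.8 from 75 to 600 mM NaCl, and 5.35, 6.29 and 6.32 in the replete cultures. It rose by 1.01 ± 0.15 (SE) log2 units per doubling (limma, adjusted p = 0.0350). Family 11588_c0 was near 0 in the replete cultures, at 0.09, 0.29 and 0.25, and had 4.61, 7.09, 25.0 and 47.9 at 75, 150, 300 and 600 mM NaCl. It rose by 1.11 ± 0.18 per doubling (limma, adjusted p = 0.0394). The count of members passing was 0 without the 75 or the 600 mM library, 33 without 150 mM and 48 without 300 mM. Of all families the same fits called 0.0534% without 75 mM, 0% without 600 mM, 4.35% without 150 mM and 6.41% without 300 mM. Both calls were lost in 9 of 13 alternatives each, including the fits without the 75 or the 600 mM library. The alternative with NaCl as log2 of concentration repeats the main fit, so its outcome was fixed in advance. The lowest adjusted p of 4502_c0 came from the fit without 300 mM, and that of 11588_c0 from the fit without 150 mM. Over the alternatives adjusted p (limma) ran from 1.68e-06 to 1 for 4502_c0 and from 1.27e-05 to 1 for 11588_c0.

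The steepest positive slopes among members at an unadjusted p under 0.05 belonged to 2998_c1, 9935_c0 and 7002_c0, none of which passed after adjustment. Family 2998_c1 had 5.64, 3.39, 52.9 and 72.1 from 75 to 600 mM NaCl, a slope of 1.40 ± 0.30 (limma, adjusted p = 0.0965). Family 9935_c0 had 4.38, 3.08, 11.8 and 79.1, a slope of 1.33 ± 0.29 (limma, adjusted p = 0.0965). Family 7002_c0 had 4.31, 3.42, 39.1 and 51.3, a slope of 1.31 ± 0.27 (limma, adjusted p = 0.0878). All 3 were lower at 150 mM than at 75 mM and were at most 1.07 in any replete culture, so they formed a low, late-climbing pattern within the set.

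The 3 members with a negative slope at an unadjusted p under 0.05 had their highest salt value at 75 mM. Family 1116_c0 had 803.4, 690.05, 303.3 and 187.5 from 75 to 600 mM NaCl, above its 89.8 in the control, with a slope of -0.75 ± 0.20 (limma, adjusted p = 0.170). Family 9675_c0 had 23.65, 17.8, 7.21 and 6.5 in the same libraries and 2.19 in the control. The values of 10001_c0 were 20.65, 15.9, 6.33 and 6.35 in salt and 1.72 in the control. In these 3 families the level in salt came closer to that of the control as NaCl increased, yet stayed above it by the rule.

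**Figure D4:**
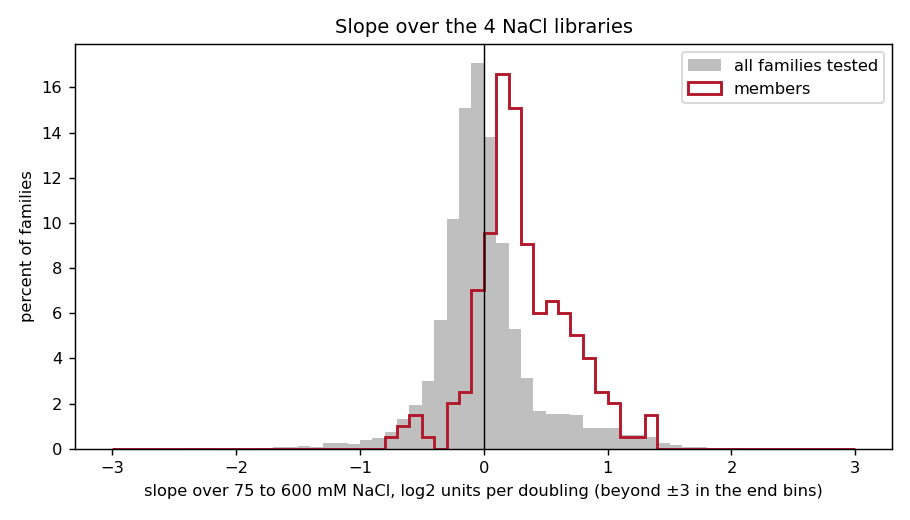
Histograms give the percent of families by slope over the 4 NaCl libraries (log2 units per doubling of NaCl) for the 199 members in red outline and for all 9309 tested families in grey. The members, chosen on the same 4 libraries, have a median of 0.26 beside -0.04 and span -0.75 to 1.40.

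Read as profiles over the 4 salt levels, the members were of several shapes, none of which has a test. Shapes were assigned in the order given here, each family to the first it met, with 2-fold limits on value + 1. In 58 members (29.1%, against 50.9% of all families) the 4 values stayed within 2-fold of each other, and their median rises over the replete level were 1.32, 1.72, 1.67 and 1.81 from 75 to 600 mM. The most abundant of them was 194_c0, with 2920.4, 4458, 4038 and 2529 in salt and 373.4, 442.3 and 622.6 in the replete cultures. In 21 members (10.6%, against 3.58%) the value never stepped down and ended at least 2-fold higher, with median rises of 1.53, 2.13, 2.72 and 3.61; 61_c0 and both families that passed the slope test were of this kind. In 8 members (4.02%, against 14%) the 75 mM value was at least 2-fold above that at 600 mM. Family 612_c0, the most abundant of these, did not decline evenly, with 828.65, 297.5, 1879 and 106.2 from 75 to 600 mM.

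Of the members in none of these shapes, 10 (5.03% of all members, against 2.51%) had a peak of at least 2-fold at 150 or 300 mM over both 75 and 600 mM. Such a peak was also present in 2 members of the preceding shape, 612_c0 and 6986_c0. Family 797_c0 was the most abundant of the 10, with 379.7, 345.0, 806.9 and 305.1 from 75 to 600 mM. The remaining 102 members (51.3%, against 29%) followed none of these shapes, 2_c0, 69_c0 and 129_c0 among them. The highest of the 4 salt values was at 600 mM in 100 members (50.3%, against 25% of all families), while 47 had it with 150 mM, 44 with 300 mM and 8 with 75 mM. The counts for 150, 300 and 75 mM have no share of all families beside them and only describe the members. At 600 mM, 96 members (48.2%, against 15.7%) were at least 2-fold above their 75 mM level and 8 at least 2-fold below it (against 14%).

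Single steps were uneven. From 75 to 150 mM the value was higher in 163 members (against 56.7% of all families), with a median step of 0.63. From 150 to 300 mM it was higher in 79 (against 44.8%), with a median step of -0.12, and from 300 to 600 mM in 134 (against 44.2%), with a median step of 0.39. The median steps of all families were 0.09, -0.07 and -0.11. The 150 mM library has a title code beginning with RAA, as does that of 0.38 mM nitrate, while the other 3 salt libraries are coded c3 to c5, and what the codes stand for is not stated. In 35 members (17.6%, against 10% of all families) the 150 mM level lay at least 2-fold above the mean of its neighbours on the log2 scale, and in 14 (against 6.09%) at least 2-fold below it. Family 7411_c0 lay farthest above, with 14.0, 78.4, 20.1 and 116.0 from 75 to 600 mM, followed by 9181_c0 with 11.5, 42.2, 11.5 and 13.1. Family 6986_c0 lay farthest below, with 15.8, 5.64, 119.3 and 7.02. The part of the title codes in these values was not tested.

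The only library that the rule does not use is that of 0.75 mM nitrate, although its reference, the highest replete level, is part of the rule. There the members' median difference from that level was 0.04 on the log2 scale. At least 2-fold above it were 21 members (10.6%), against 4.48% of all families; of the 45 families removed by the nitrate clause 19 were. Of these 21 members, 8 were also raised at 0 mM nitrate, 5 also at 0.38 mM and 8 at neither. Family 9277_c0 was the most raised, with 23.7 for 0.75 mM nitrate against 5.13 for 0 mM, 3.01 for 0.38 mM and at most 2.21 in the replete cultures, and with 8 to 10.99 in salt. Family 12794_c0 had 12.9 at 0.75 mM nitrate, 2.65 at 0.38 mM, at most 1.16 in the replete cultures and 3.66 to 8.38 in salt. In both families the value at 0.75 mM nitrate was above each of the 4 salt values. The lowest members at 0.75 mM nitrate relative to the replete cultures were 69_c0 and 612_c0, the latter with 2.17 against 18.0 to 34.7.

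The absence of nitrate went with higher levels in many members. At 0 mM nitrate 92 members (46.2%, against 8.79% of all families) were at least 2-fold above the highest replete level, and in 49 of these the value also exceeded that at 75 mM NaCl. At 0.38 mM nitrate only 8 (4.02%, against 5.77%) were, and none was at both, as the rule demands. These counts are partly set by the rule and no test was made of them, and the 49 has no share of all families beside it. The 0 mM library is coded c6, those of 75, 300 and 600 mM NaCl c3 to c5, that of 0.75 mM nitrate c7 and the replete libraries c1, c2 and c8. The 0.38 mM nitrate library has a code beginning with RAA, as does the remaining NaCl library. The counts at 0 and 0.38 mM nitrate thus come from libraries that differ in code as well as in nitrate. What the codes stand for is not stated, and their part in the counts was not tested.

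The 92 members raised at 0 mM nitrate had a median rise of 1.65 there and of -0.03 at 0.38 mM nitrate, and of 1.51, 2.22, 2.03 and 2.36 from 75 to 600 mM NaCl. The 99 members raised at neither low nitrate level had medians of 0.36 at 0 mM and -0.36 at 0.38 mM nitrate, and of 1.51, 2.17, 2.09 and 2.66 in salt. The medians of the 2 groups in salt thus lay close together at each concentration, and the groups lay apart mainly at 0 mM nitrate, where the choice of the groups places them. Among the 99, 12 had a lower value at 0 mM nitrate than in any replete culture, and 18 were at least 2-fold below the highest replete level at 0.38 mM. Shares of all families are not given for either count, so both only describe the members. The 8 members raised at 0.38 mM but not at 0 mM nitrate were low in the replete cultures, where the median of their highest value was 1.39 against 25.3 for the 92 and 15.6 for the 99.

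**Figure D5:**
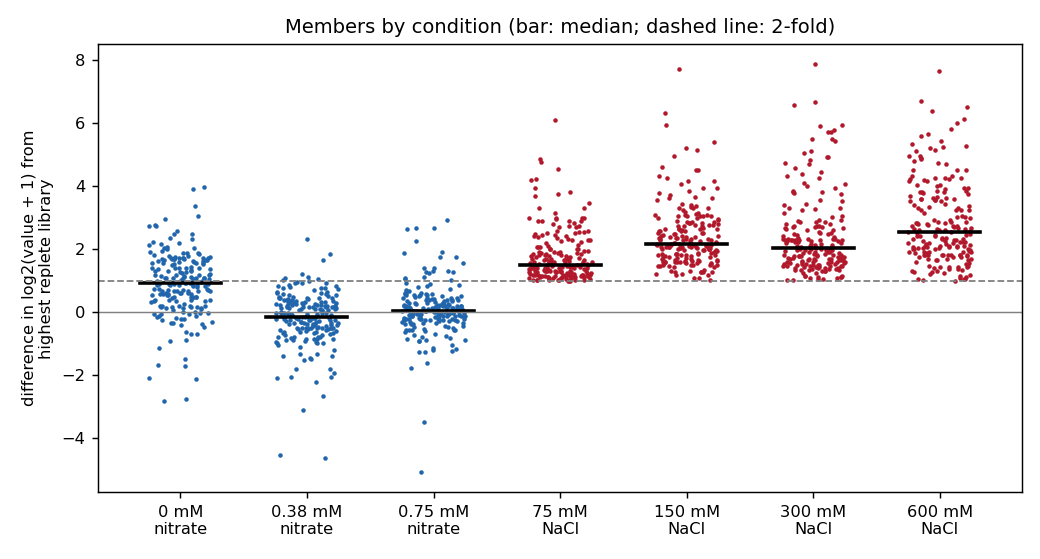
Each point is 1 of the 199 members in 1 library, as the difference in log2(value + 1) from the highest replete library, with black bars at the medians, blue for the low-nitrate libraries and red for the NaCl libraries. Medians are 0.93, -0.16 and 0.04 for 0, 0.38 and 0.75 mM nitrate. They are 1.51, 2.18, 2.03 and 2.56 for 75, 150, 300 and 600 mM NaCl. The red points start at the 2-fold line because the rule sets that limit.

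Membership was often decided near the limit. The lowest of the 4 rises was between 1 and 1.5 in 118 members, between 1.5 and 2 in 41, between 2 and 3 in 31 and at least 3 in 9. Family 4141_c0 met the limit exactly, with 1.40 at 75 mM NaCl against its highest replete value of 0.20 in the control, and 3027_c0 lay just inside with a smallest rise of 1.001. Just outside were 254_c0, with 0.997 at 300 mM, and 4090_c0, with 0.996 at 75 mM.

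Scaffold numbers gave little structure to the set. Only 6 members (3.02%, against 4.92% of all families) share their number with another family, and no 2 members share one. The relatives did not meet the salt clause, with smallest rises of -0.70 to 0.47. Family 1044_c0, for example, had 3.33 to 7.88 in salt and at most 0.75 in the replete cultures, whereas 1044_c1 had 24.5 to 37.2 in salt and 34.1 to 40.5 in the replete cultures. Family 468_c2 had 162.95 in 600 mM NaCl and 10.8 in the control, while its relative 468_c1 had 98.45 and 38.65. The 1044 and 468 families, 38_c0, and both families that passed the slope test were named after their values were seen, as were the 2 families listed at 0; the others follow a rule. What a shared number means for the sequences is not stated in the sources used here.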

How the data were processed

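RNA levels of 10122 families in 10 libraries were taken from 1 table, in which the authors deposited signal values with 2 decimals. Their unit is not stated, and scaling for length and depth was judged from the values. Per the submitters' processing notes, edgeR 3.0.8, RSEM 1.2.0 and Bowtie 0.12.8 were among the tools. The table's 0.375 mM nitrate is 0.38 mM in the labels. All 10 sample columns were used and 0 were set aside. The rule was applied to log2(value + 1), and a difference of exactly 1 met it. Slopes over the 4 NaCl libraries were fitted with limma 3.58.1 (R 4.3.3; intensity trend, 2 residual degrees of freedom, 9.29 in all), for families with a mean of at least 1, with Benjamini-Hochberg adjustment over 9309 families. The fit was tested on simulated data with the same normal error in all families, which says nothing of the calls in these data. Python 3.11.15, numpy 2.4.6 and pandas 2.3.3 did the rest. The members and lists were chosen with earlier results of these data known. Families were named for the largest smallest rise, the highest mean, the steepest slopes, the extremes at 0.75 mM nitrate and at 150 mM NaCl, the margins of the rule and the highest mean in each shape. No pathway lists could be tested. Alternatives changed the scaling, pseudocount, filter, threshold, reference, coding of NaCl, trend and libraries.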

Additional observations from a re-analysis of the deposited data

How the results depend on the processing

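No paired analysis was possible because each condition had 1 library. The 44 families passing the slope test (limma, adjusted p under 0.05) were 11 with a mean of at least 5 or with no filter, 12 with a pseudocount of 5, 91 with NaCl coded in mM, and 0 with median-ratio scaling, equal totals or no intensity trend; without 1 NaCl library they numbered 0 to 604. At an unadjusted p under 0.05 they were 1049, and 1057, 1022 and 1163 in those last 3 alternatives. The 2 members passing became 0 with the mean of at least 5, no filter, the pseudocount of 5, median-ratio scaling, equal totals or no trend, and 0 to 48 without 1 library (0 without 75 or 600 mM, 33 without 150 mM, 48 without 300 mM). At an unadjusted p under 0.05 these were 57 members, and 51, 56, 56, 69, 49 and 47 in the same 6 alternatives. Over all families tested the counts were 1049 of 9309 in the main fit. In the alternatives they were 717 of 7743, 1214 of 10081, 1039 of 9309, 1057 of 9289, 1022 of 9200 and 1163 of 9309. The 199 members became 114 with equal totals (113 shared), 93 with a threshold of 1.5, 47 with 2, and 107 (without 0.38 mM nitrate) to 330 (without 75 mM NaCl) when 1 library was left out. Members with a rising shape numbered 36 under median-ratio scaling, and peaked ones 4 under equal totals, both without a share of all families beside them. The median departure of members at 150 mM NaCl was 0.39, and 0.25 under median-ratio scaling. Over the tested families it was 0.10, and -0.03 under that scaling. Members raised at 0.75 mM nitrate numbered 21, and 13 with a pseudocount of 5, beside 4.16% and 2.58% of the tested families. Without the 50 most abundant families the members' share was 4.08%, 7.04%, 5.99% and 10.1% at 75 to 600 mM NaCl, and without the 5 most abundant members 3.74%, 6.26%, 5.04% and 8.21%. The slope of 129_c0 ran from -0.030 without 75 mM NaCl (limma, adjusted p = 0.999) to 0.89 without 600 mM. The cause of these changes was not tested. Depth is unknown and sets no limit that could be given.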
